A study of Xenopus laevis with 12 samples.

Results

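The genes described here hold cells together and anchor them to the matrix: cadherins, protocadherins, desmosomal proteins, catenins, claudins, epcam, integrin subunits and the kindlins that activate integrins. They were chosen by gene symbol from the array's annotation, which gave 61 genes on 82 probe sets, out of 7531 named genes on 15491 probe sets. Where a gene had several probe sets, the one of highest mean log2(signal + 16) stood for it. One subgroup of protocadherins was left out by the rule and is not analysed here. The symbol rule also admitted ctnnal1.S, cldnd1.L, itgb1bp2.L and itgbl1.L, which share a name with a family without being a classical catenin, a claudin or an integrin subunit.

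Injected embryos of the frog Xenopus laevis were compared in a pair of groups, with 6 whole embryos each. Embryos of the Nkx2-5+GFP group had received mRNA for the homeodomain factor Nkx2-5 mixed with GFP mRNA, and embryos of the GFP group had received GFP mRNA, which encodes a fluorescent marker protein. Injection took place at the 8-cell stage, and each embryo was taken alone at stage 11.5, late in gastrulation, so all 12 embryos carry injected GFP mRNA, and which cells took up the mRNA is not stated in the labels. Each embryo was hybridised to its own Affymetrix array, and the study's title names putative targets of Nkx2-5 as its subject.

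Cadherins are transmembrane proteins that bind like cadherins on the next cell and reach the actin cytoskeleton through catenins. Claudins seal the tight junctions of epithelia, desmosomal proteins tie junctions to keratin filaments, and integrins are dimers of an alpha and a beta subunit that bind matrix proteins once kindlin and talin have switched them on. In the frog gastrula these proteins keep the outer epithelium closed while deep cells crawl over fibronectin and intercalate.

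Values are MAS5 signals, which are probe set brightnesses on a linear scale. A difference is Nkx2-5+GFP minus GFP on the log2(signal + 16) scale, which understates changes of dim probe sets. Folds are taken from this difference, so they are ratios of signal + 16 rather than of signal. Signals of different probe sets cannot be ranked as transcript levels. Array medians lay between 305 and 349.7. The nkx2-5.S probe sets, which need not detect the injected mRNA, ranged from 115 to 233 in Nkx2-5+GFP embryos and from 57.4 to 138 in GFP embryos. The beta-actin 3' to 5' ratio, a sign of RNA length, ranged from 2.68 to 3.33 in Nkx2-5+GFP embryos and from 2.81 to 4.27 in GFP embryos. Germ layer markers were present, with summed signals in Nkx2-5+GFP against GFP embryos of 47225 to 58643 against 33029 to 43051 for 22 epidermal genes, 19568 to 27710 against 16153 to 20553 for 16 mesodermal genes and 65766 to 71150.4 against 69710.1 to 82242 for 26 endodermal genes. In whole embryos, fewer cells of a type and less RNA per cell cannot be told apart.

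Nkx2-5+GFP embryos had higher signals of 5 of the 61 adhesion genes and lower signals of 0 at a limma adjusted p under 0.05. The 5 were the kindlin gene fermt1.S, the integrin gene itga3.L, the claudin gene cldn5.L and the cadherin genes cdh3.L and cdh11.S. This share, 8.20%, stands beside 6.38% of all probe sets called and 6.97% of named genes called, and 3.12% of all probe sets were called higher and 3.26% lower. Among named genes 3.11% were called higher. At an unadjusted p under 0.05, limma passed 18 members, while 24.3% of all probe sets passed. The median difference over the 61 genes was 0.056, against -0.018 over all named genes, and 37 members had a positive difference and 24 a negative one. The groups did not overlap in 2 members, fermt1.S and itga3.L, both higher in Nkx2-5+GFP embryos, where 2.99% of all probe sets did not overlap, and 1.57% of all did not overlap and were higher in Nkx2-5+GFP embryos. Of the 36 members whose mean lay below the median probe set, 4 were called, where 3.29% of such probe sets were. Of the 25 brighter members 1 was called, where 9.46% of such probe sets were.

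**Figure D1:**
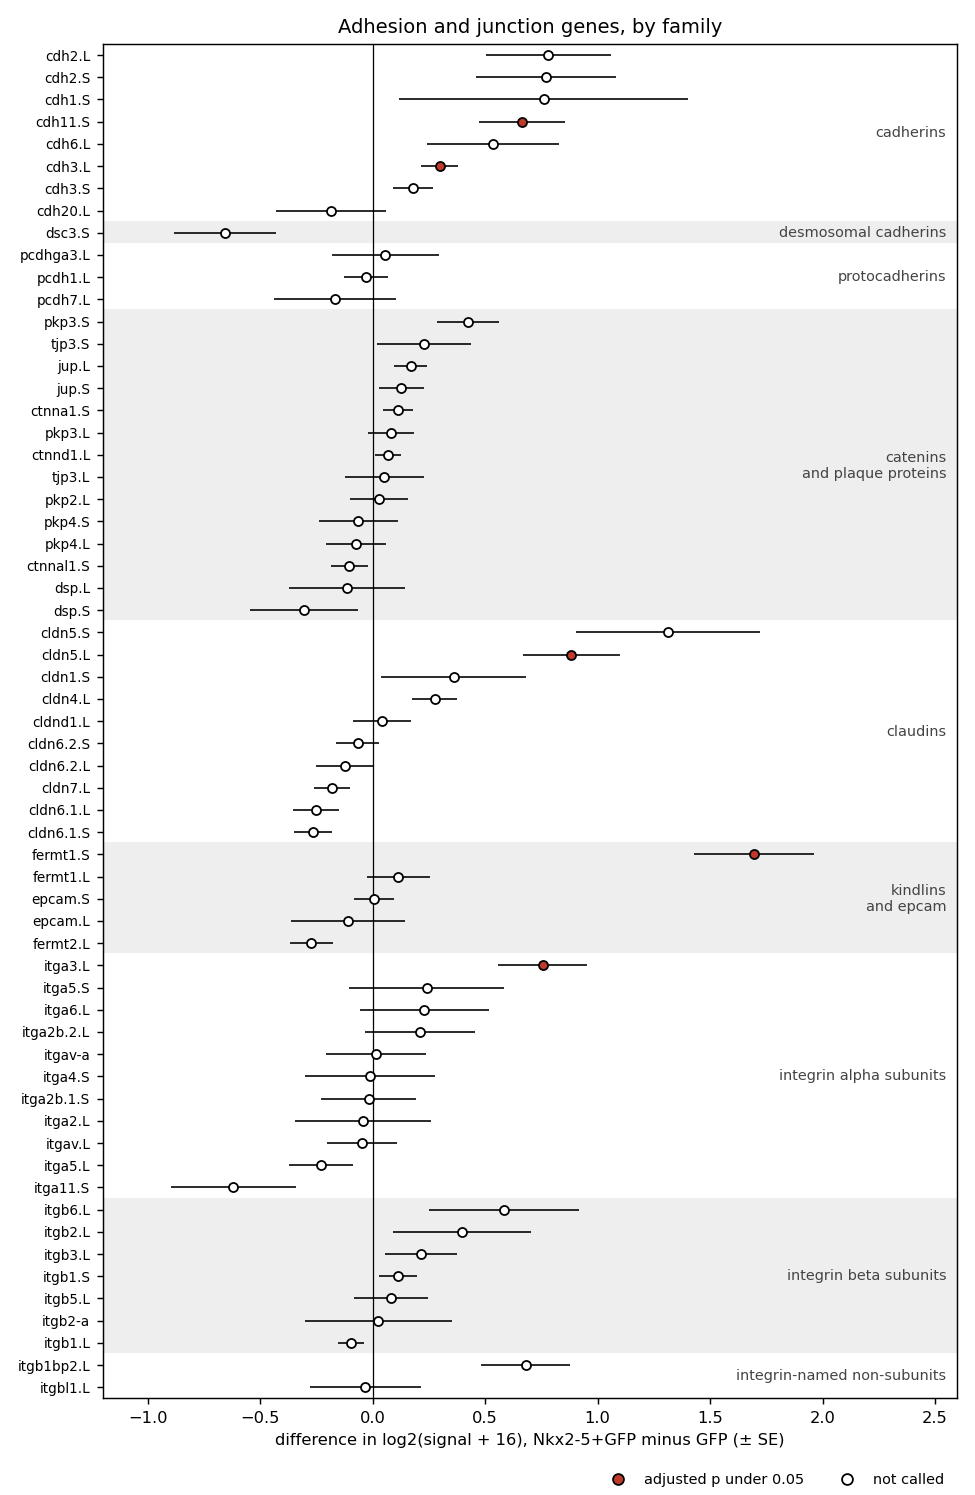
Difference in log2(signal + 16), Nkx2-5+GFP minus GFP, for each of the 61 adhesion and junction genes by family, with limma's SE as bars and 6 embryos in each group. Filled points mark the 5 called genes, all to the right of 0, with fermt1.S farthest out at 1.69.

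The calls differed in how far they depended on single embryos and settings. fermt1.S was called in each of the 21 alternative analyses that tested it, with limma adjusted p-values between 0.000425 and 0.0218. The dimmer probe sets were not tested in the remaining alternative. cldn5.L was called in 13 of 21 alternatives, itga3.L in 11 of 21, cdh3.L in 8 of 22 and cdh11.S in 7 of 21. The count of 5 called members fell to 1 when any of GFP embryos 2 and 3 and Nkx2-5+GFP embryos 1, 4 and 6 was left out, and to 2 when any of GFP embryos 4 and 6 and Nkx2-5+GFP embryo 2 was. With the beta-actin ratio in the fit, 1 member was called. Calls over all probe sets fell as well, from 988 to between 285 and 558 in these omissions and to 160 with the beta-actin ratio.

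Kindlins bind the tails of integrin beta subunits and help switch integrins on. Kindlin-1, the product of fermt1, is known in mammals as the kindlin of skin epithelium, and kindlin-2, the product of fermt2, is the widespread form. The fermt1.S signal had a lowest, median and highest value of 101, 252 and 372 in Nkx2-5+GFP embryos, against 36.2, 61.7 and 97.1 in GFP embryos. Every Nkx2-5+GFP embryo lay above every GFP embryo, and the smallest gap was between Nkx2-5+GFP embryo 5 and GFP embryo 5. The difference was 1.69 on the log2 scale, or 3.24-fold (SE 0.27, limma adjusted p = 0.003, exact permutation p = 0.00216, the smallest that 924 splits can give). Its size lay within 1.25 and 1.93 over all alternatives, and 0.129% of probe sets had a difference as large in either direction.

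The L copy had no called difference. fermt1.L had signals of 144, 159 and 199 in Nkx2-5+GFP embryos, against 118, 154 and 175 in GFP embryos, which overlapped widely. Its difference was 0.11 (SE 0.14, limma adjusted p = 0.674). fermt2.L had signals of 4301, 5186 and 5853 in Nkx2-5+GFP embryos, against 5162, 6287 and 7152 in GFP embryos. All 6 Nkx2-5+GFP embryos lay below the GFP median, and the difference of -0.27 (SE 0.10) did not pass (limma adjusted p = 0.0969). A dimmer fermt2.L probe set gave -0.22 and did not pass either.

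Epithelial cell adhesion molecule, encoded by epcam, is a surface protein of epithelia that supports junctions in fish and frog embryos. epcam.S averaged 8045 ± 905 in Nkx2-5+GFP embryos and 8021 ± 847 in GFP embryos (SD, n = 6 each). epcam.L averaged 6395 ± 2719.7 in Nkx2-5+GFP embryos and 6591 ± 1882 in GFP embryos (SD, n = 6 each), with a difference of -0.11 (SE 0.26).

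Among integrin alpha subunits, which set the ligand that a dimer binds, 1 of 11 genes was called, or 9.09%. Of all named genes 6.97% were called. Integrin alpha 3 pairs with beta 1 as a laminin receptor of epithelia. itga3.L signals had a lowest, median and highest value of 314, 382 and 666 in Nkx2-5+GFP embryos, against 161, 263 and 307 in GFP embryos. The groups did not overlap, although the lowest Nkx2-5+GFP embryo stood close to the highest GFP embryo. The difference was 0.76, or 1.69-fold (SE 0.20, limma adjusted p = 0.0368, exact permutation p = 0.00216). The call was lost when GFP embryo 2, 3, 4 or 6, or embryo 1, 2, 4 or 6 of the Nkx2-5+GFP group, was left out, without the intensity trend and with the beta-actin ratio in the fit. The array holds a pair of dimmer itga3.L probe sets, which differed by 0.29 (SE 0.39) and -0.03 (SE 0.31) and did not pass.

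Integrin alpha 5, a subunit of the fibronectin receptor that gastrula cells use to migrate, showed no called difference. itga5.L had signals of 175, 255 and 312 in Nkx2-5+GFP embryos, against 271, 279.9 and 339 in GFP embryos. Of the Nkx2-5+GFP embryos, 4 lay below the lowest GFP embryo and 2 among them, and the difference of -0.23 (SE 0.14) did not pass (limma adjusted p = 0.342). A second itga5.L probe set gave -0.15. The alpha v subunit, a receptor for fibronectin and vitronectin, averaged 137 ± 18.8 for itgav.L in Nkx2-5+GFP embryos and 143 ± 29.4 in GFP embryos (SD, n = 6 each), a difference of -0.05, and its other probe set gave 0.22 without passing. itga11.S, a gene of the collagen receptor type, had the most negative difference of the alpha subunits, at -0.62 (SE 0.28), short of the threshold (limma adjusted p = 0.181). Its averages were 26.4 ± 13.6 in Nkx2-5+GFP embryos and 50.3 ± 23.3 in GFP embryos (SD, n = 6 each), near the dim end of the array. The other alpha subunits were also dim. itga2.L, itga2b.1.S, itga2b.2.L, itga4.S, itga5.S, itga6.L and itgav-a had differences between -0.04 and 0.24 and none passed. The annotation ties a probe set of itgav-a and one of itga2b.1.S to 1 source sequence, and likewise for itgb2-a and itgb2.L, so their names are uncertain.

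Of the 7 integrin beta subunits none was called, where 6.97% of all named genes were. By limma 0 of them had an unadjusted p under 0.05, where 24.3% of all probe sets did. Integrin beta 1 is the common partner of most alpha subunits in the gastrula. itgb1.L had signals of 9263, 9658 and 10532 in Nkx2-5+GFP embryos, against 9847, 10628 and 10877 in GFP embryos. All 6 Nkx2-5+GFP embryos lay below the GFP median, by a small amount, with a difference of -0.10 (SE 0.06, limma adjusted p = 0.333). A dimmer itgb1.L probe set gave 0.024 (SE 0.15), the opposite sign, without passing. itgb1.S had 3556, 4074 and 5253 in Nkx2-5+GFP embryos, against 3685, 3791 and 4069 in GFP embryos, a difference of 0.11 (SE 0.09). itgb6.L, the epithelial partner of alpha v, had the largest beta difference at 0.58 (SE 0.33), with 60.1 ± 39.2 in Nkx2-5+GFP embryos and 28.9 ± 8.11 in GFP embryos (SD, n = 6 each). It did not pass (limma adjusted p = 0.306), and its other probe set gave -0.30. itgb2.L, itgb2-a, itgb3.L and itgb5.L differed by 0.02 to 0.40 without passing.

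A pair of genes carry integrin names without being subunits. itgb1bp2, or melusin, is known in mammals as a muscle protein that binds the tail of integrin beta 1. itgb1bp2.L signals were 117, 168 and 229 in Nkx2-5+GFP embryos, against 78.5, 89.9 and 142 in GFP embryos. All 6 Nkx2-5+GFP embryos lay above the GFP median, 3 of them above the highest GFP embryo. The difference of 0.68 (SE 0.20) fell just short of the threshold (limma adjusted p = 0.0516) and passed in 5 of 21 alternatives, with the replicate block and with robust estimation among them. itgbl1.L, which encodes a secreted protein with integrin-like repeats, averaged 70.4 ± 30.6 in Nkx2-5+GFP embryos and 71.3 ± 25.4 in GFP embryos (SD, n = 6 each).

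Cadherin genes had positive differences in 7 of 8 members and a median difference of 0.60, against 47.1% positive and a median of -0.018 over all named genes. The 8 include both copies of cdh2 and of cdh3. Of the 8, 2 were called higher and 0 lower, where 3.11% of all named genes were called higher. Mesodermal markers had positive differences in 15 of 16 and a median of 0.69, and epidermal markers in 21 of 22 and a median of 0.53, and their part in the cadherin differences was not tested. With a pseudocount of 64 the median was 0.37 and with the beta-actin ratio in the fit 0.38. Over the brighter members alone, which are only cdh3.L and cdh3.S, it was 0.24.

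C-cadherin, encoded by cdh3, is the cadherin that frog embryos inherit from the egg and use through gastrulation. cdh3.L signals were 5654, 5900.2 and 7009.5 in Nkx2-5+GFP embryos, against 4447, 4823 and 5866 in GFP embryos. All 6 Nkx2-5+GFP embryos lay above the GFP median, 3 of them above GFP embryo 5, the highest of its group. The difference was 0.30, or 1.23-fold (SE 0.08, limma adjusted p = 0.045, exact permutation p = 0.00866). cdh3.S signals were 1484, 1625 and 1809 in Nkx2-5+GFP embryos, against 1288, 1400.2 and 1675 in GFP embryos. Its difference of 0.18 (SE 0.09) had the same sign and missed the threshold (limma adjusted p = 0.233). The cdh3.L call was lost without 9 of the 12 embryos, namely GFP embryos 2, 3, 4 and 6 and Nkx2-5+GFP embryos 1, 2, 3, 4 and 6, with limma adjusted p-values up to 0.112 among these. It was also lost with quantile normalization, median scaling, the replicate block (limma adjusted p = 0.06), no intensity trend or the beta-actin ratio in the fit.

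Cadherin-11 is a mesenchymal cadherin of neural crest. cdh11.S signals were 75.2, 108 and 160.3 in Nkx2-5+GFP embryos, against 52.0, 65.4 and 76.0 in GFP embryos. Of the Nkx2-5+GFP embryos, 5 lay above the highest GFP embryo, and embryo 5 lay just under it. The difference was 0.67, or 1.59-fold (SE 0.19, limma adjusted p = 0.0497, exact permutation p = 0.00433). The call stood at the threshold, and it was lost when any one embryo other than embryo 5 of either group was left out, with the replicate block (limma adjusted p = 0.073), with a pseudocount of 1, without the intensity trend and with the beta-actin ratio in the fit.

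N-cadherin, encoded by cdh2, marks the neural plate and mesoderm. cdh2.L signals were 72.3, 90.8 and 108 in Nkx2-5+GFP embryos, against 7.57, 55.2 and 75.9 in GFP embryos. cdh2.S signals were 77.0, 103 and 198 in Nkx2-5+GFP embryos, against 16.8, 72.1 and 111 in GFP embryos. Both copies differed by similar amounts, 0.78 (SE 0.28) for cdh2.L and 0.77 (SE 0.31) for cdh2.S, and neither passed (limma adjusted p = 0.102 and 0.142). A pair of dimmer cdh2.L probe sets gave -0.07 and -0.49 without passing.

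E-cadherin, encoded by cdh1, is the cadherin of epidermal ectoderm. cdh1.S signals were 53.5, 479 and 951 in Nkx2-5+GFP embryos, against 41.8, 369.8 and 517 in GFP embryos. The difference of 0.76 (SE 0.64) was well within this spread (limma adjusted p = 0.516). Signals in 9 embryos lay between 363 and 951 and in the other 3, Nkx2-5+GFP embryo 5 and GFP embryos 4 and 5, between 41.8 and 53.5, with none in between. The SD within groups was 1.38 on the log2 scale, and of 8552 probe sets with a mean log2 of at least 8, only 4 had a larger one, beside a median of 0.21. epcam.L, at an SD of 0.54, was also more variable than most, with 2.15% of these probe sets above it, while epcam.S had an SD of 0.16. cdh6.L and cdh20.L, the K- and F-cadherin genes of kidney and neural tube, were at the dim end, at 23.8 ± 14.1 and 7.21 ± 4.79 in Nkx2-5+GFP embryos and 10.7 ± 8.01 and 11.2 ± 9.30 in GFP embryos (SD, n = 6 each).

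**Figure D2:**
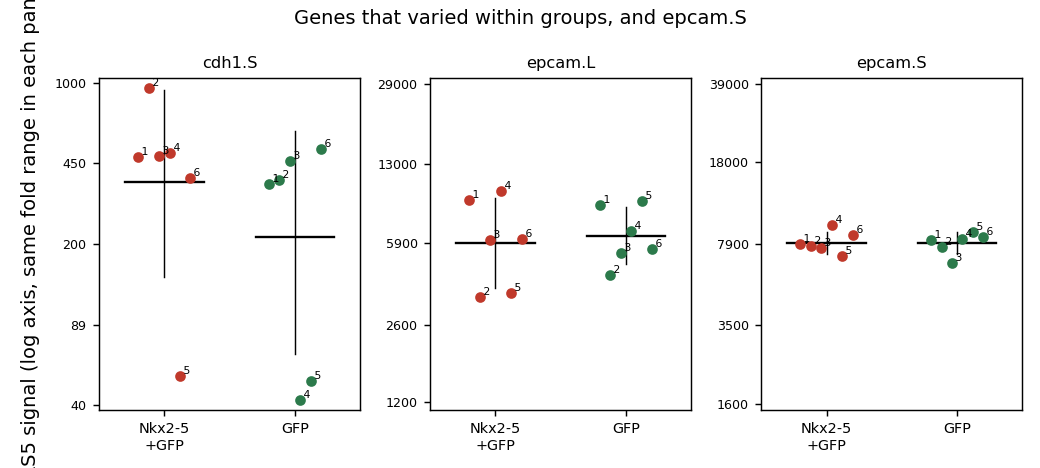
Signal of cdh1.S, epcam.L and epcam.S in each embryo on log axes of equal fold range, with embryo numbers, Nkx2-5+GFP left and GFP right. Horizontal lines are means and vertical lines SDs on the log2 scale (n = 6 each). For cdh1.S, Nkx2-5+GFP embryo 5 and GFP embryos 4 and 5 sit at 41.8 to 53.5 and the other 9 at 363 to 951.

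Protocadherins are cadherin relatives with weaker adhesion. Of the 3 measured none was called, where 6.97% of all named genes were. pcdh1.L, which encodes axial protocadherin of the notochord, averaged 1485 ± 196 in Nkx2-5+GFP embryos and 1510.3 ± 128 in GFP embryos (SD, n = 6 each), a difference of -0.03 (SE 0.10). pcdh7.L and pcdhga3.L were dim and differed by -0.17 and 0.06. The only desmosomal cadherin among the named genes, desmocollin 3, had dsc3.S signals of 49.4, 76.6 and 129.7 in Nkx2-5+GFP embryos, against 105, 120.4 and 226 in GFP embryos. Of the Nkx2-5+GFP embryos, 5 lay below the lowest GFP embryo and embryo 3 lay among them. The difference of -0.66 (SE 0.23), the most negative of all 61 genes, did not pass (limma adjusted p = 0.0915).

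Catenins and plaque proteins act inside the cell, where most of them connect cadherins to the cytoskeleton. The 14 genes counted here also take in tjp3.L and tjp3.S of tight junctions and ctnnal1.S, not a classical catenin. Of the 14, 0 were called, where 6.97% of all named genes were, and the median difference was 0.059. At an unadjusted p under 0.05, limma passed 2, where 24.3% of all probe sets passed. Beta-catenin is not among the 14, since the symbol rule does not take ctnnb1, and stands with the adherens junction partners below. Alpha-catenin, the link to actin, averaged 6732 ± 498 for ctnna1.S in Nkx2-5+GFP embryos and 6220.3 ± 298 in GFP embryos (SD, n = 6 each), a difference of 0.11 (SE 0.07). The p120 catenin gene ctnnd1.L, whose product stabilises cadherins at the membrane, differed by 0.07 (SE 0.06). Plakoglobin, encoded by jup, serves both adherens junctions and desmosomes. jup.L signals were 9496, 10498 and 11246 in Nkx2-5+GFP embryos, against 8248, 9330.1 and 10174 in GFP embryos. All 6 Nkx2-5+GFP embryos lay above the GFP median, and the difference of 0.17 (SE 0.07) did not pass (limma adjusted p = 0.166). jup.S differed by 0.13 (SE 0.10).

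Plakophilins are desmosomal plaque proteins of the armadillo family. pkp3.S signals were 280.0, 417 and 507 in Nkx2-5+GFP embryos, against 274, 299.6 and 319 in GFP embryos. The 6 GFP embryos lay close together and 5 of the 6 Nkx2-5+GFP embryos lay above them. The difference of 0.42 (SE 0.14) did not pass (limma adjusted p = 0.0767). pkp3.L differed by 0.08 (SE 0.10). pkp2.L, pkp4.L and pkp4.S had differences between -0.07 and 0.03. The desmoplakin genes dsp.L and dsp.S differed by -0.11 and -0.31, the tight junction plaque genes tjp3.L and tjp3.S by 0.05 and 0.23, and ctnnal1.S by -0.10, and none passed.

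Of 10 genes with claudin names, cldnd1.L among them, 1 was called, where 6.97% of all named genes were. Their median difference was -0.014, with 5 positive and 5 negative. This median changed sign in some alternatives, between -0.12 and 0.040. So did those of the integrin alpha subunits, between -0.10 and 0.13, the protocadherins, between -0.075 and 0.026, and the kindlins and epcam, between -0.11 and 0.055. Claudin-5 is known in mammals as the claudin of blood vessel walls. cldn5.L signals were 61.3, 144 and 148 in Nkx2-5+GFP embryos, against 37.2, 57.3 and 78.8 in GFP embryos. Of the Nkx2-5+GFP embryos, 5 lay above all GFP embryos and embryo 5 lay among them. The difference was 0.88, or 1.84-fold (SE 0.22, limma adjusted p = 0.0289, exact permutation p = 0.00649). The call was lost when GFP embryo 2 or 3, or any Nkx2-5+GFP embryo other than 5, was left out, and with the beta-actin ratio in the fit (limma adjusted p up to 0.104).

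cldn5.S had signals of 39.5, 201 and 366 in Nkx2-5+GFP embryos, against 36.3, 51.5 and 90.1 in GFP embryos. Of the Nkx2-5+GFP embryos 4 lay above all GFP embryos, and embryos 3 and 5 lay among them. The difference of 1.31, or 2.49-fold (SE 0.41), missed the threshold (limma adjusted p = 0.0658), although it passed with the replicate block (limma adjusted p = 0.0402) and when Nkx2-5+GFP embryo 3 or 5 was left out. cldn4.L, which encodes a claudin of tight epithelia, had 10032, 12181 and 13765 in Nkx2-5+GFP embryos, against 8106, 10374 and 10961 in GFP embryos. Its difference was 0.27 (SE 0.10, limma adjusted p = 0.103). cldn1.S and cldnd1.L differed by 0.36 (SE 0.32) and 0.04 (SE 0.13) without passing.

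The cldn6 and cldn7 genes, also of epithelia, had negative differences on all of their chosen probe sets, none of which passed. cldn6.1.S signals were 3933, 4458 and 4820.3 in Nkx2-5+GFP embryos, against 4404, 5366 and 5970.5 in GFP embryos. All 6 Nkx2-5+GFP embryos lay below the GFP median, and only GFP embryo 1 lay among them. The difference was -0.27 (SE 0.08, limma adjusted p = 0.0696). cldn6.1.L differed by nearly the same, -0.25 (SE 0.10, limma adjusted p = 0.148), with 4387 ± 682 in Nkx2-5+GFP embryos and 5194 ± 536 in GFP embryos (SD, n = 6 each). cldn6.2.L and cldn6.2.S differed by -0.12 (SE 0.13) and -0.07 (SE 0.09).

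cldn7.L signals were 5749, 6715 and 7319 in Nkx2-5+GFP embryos, against 6659.9, 7601 and 8788 in GFP embryos, a difference of -0.18 (SE 0.08) that did not pass (limma adjusted p = 0.173). The array holds a pair of further cldn7.L probe sets. In one, signals averaged 6173 ± 595 in Nkx2-5+GFP embryos and 7999 ± 1302 in GFP embryos (SD, n = 6 each) and fell by 0.36 in log2 terms (SE 0.10), which limma called (adjusted p = 0.0429). The other gave -0.20 and did not pass. The called cldn7.L probe set was the only one called among the 21 further probe sets of member genes. Of the 21, 11 had the sign of the chosen one and 10 the opposite. Most lay below the median probe set. Of those at or above it, the probe sets of cldn7.L, ctnna1.S and fermt2.L had the chosen sign. That of itgb1.L had the opposite, at 0.024.

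**Figure D3:**
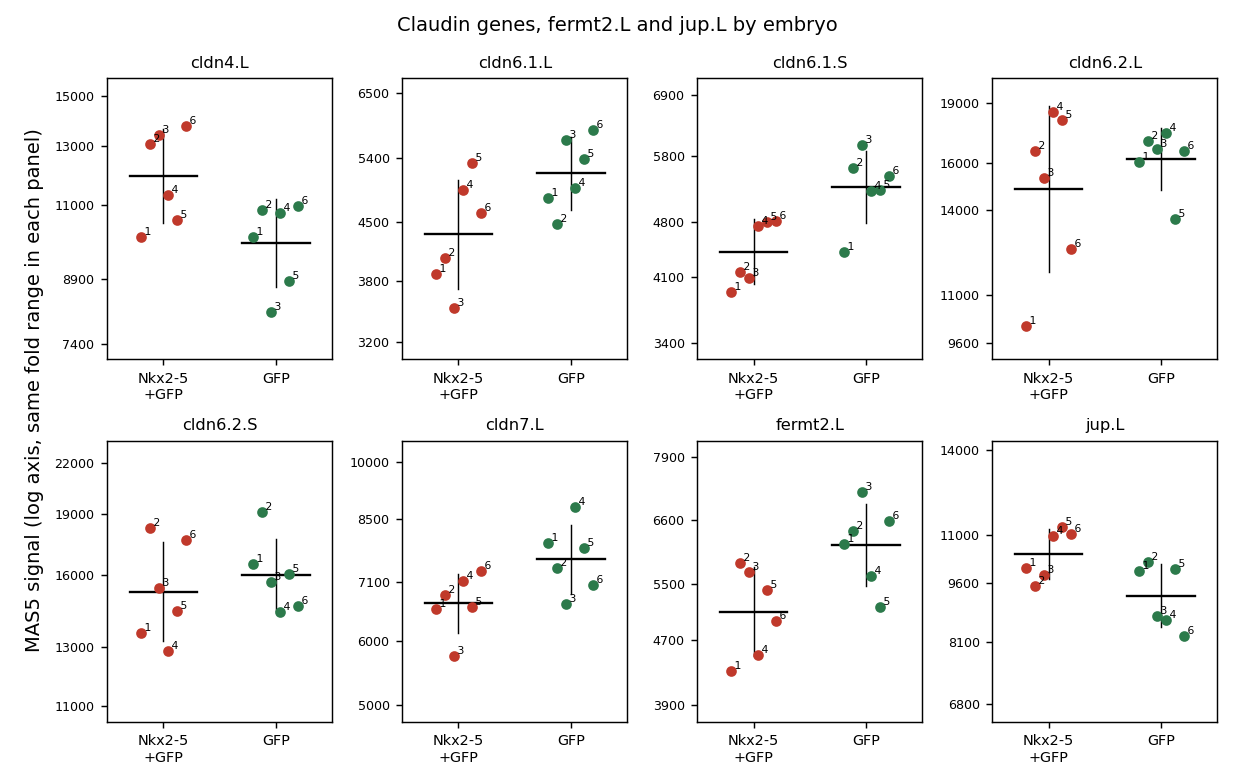
Signal of 6 claudin genes, fermt2.L and jup.L in each embryo on log axes of equal fold range, with embryo numbers, Nkx2-5+GFP left and GFP right. Lines are means and SDs on the log2 scale (n = 6 each). Nkx2-5+GFP embryos sit lower for cldn6.1.S, cldn7.L and fermt2.L and higher for cldn4.L and jup.L, all with overlap and none called.

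**Figure D4:**
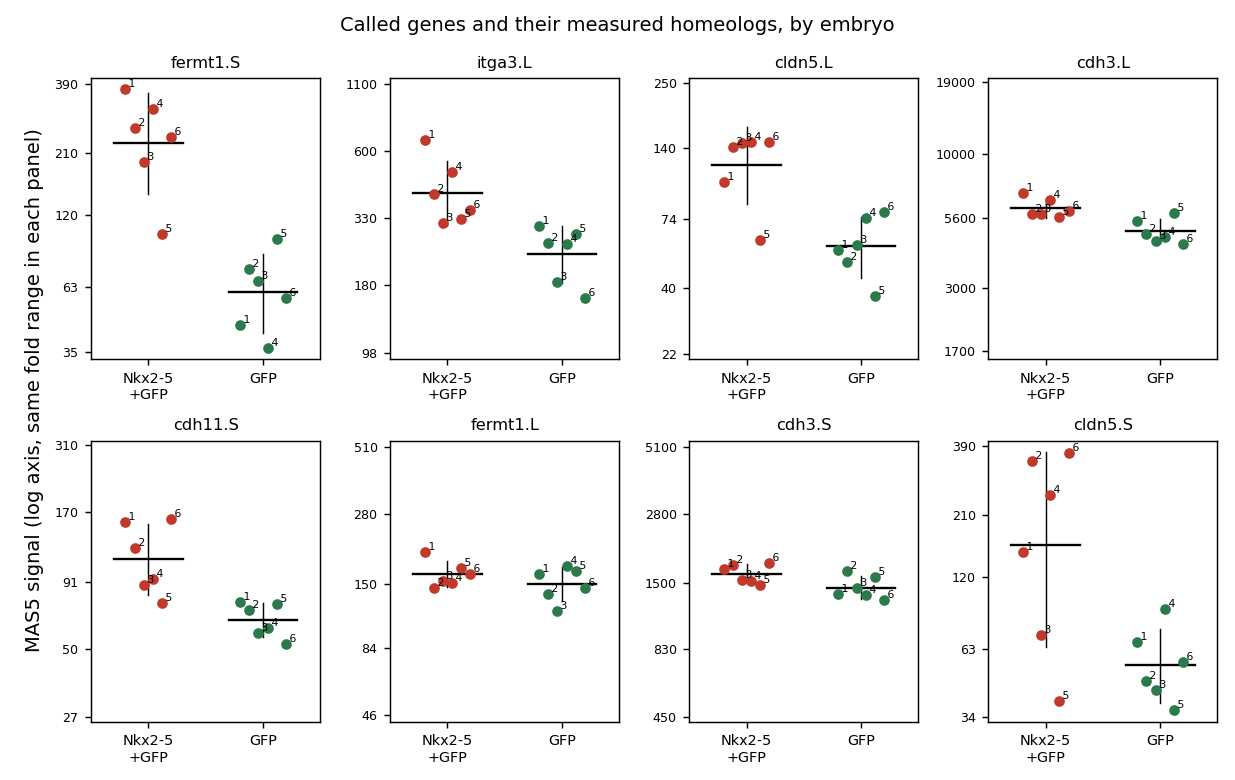
Signal of the 5 called genes and of fermt1.L, cdh3.S and cldn5.S in each embryo on log axes of equal fold range, with embryo numbers, Nkx2-5+GFP left and GFP right. Lines are means and SDs on the log2 scale (n = 6 each). In fermt1.S and itga3.L the groups do not overlap, and Nkx2-5+GFP embryo 5 is the lowest of its group for 4 of the 5 called genes.

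The embryos of a group were not alike in these genes. Nkx2-5+GFP embryo 5 had the lowest signal of its group for 4 of the 5 called genes, all but itga3.L, and in the GFP group embryo 5 was highest for 2, fermt1.S and cdh3.L, embryo 1 for 2, itga3.L and cdh11.S, and embryo 6 for cldn5.L. Without Nkx2-5+GFP embryo 5 limma called 6 members, and without GFP embryo 5 it called 7. Calls over all 15491 probe sets rose too, from 988 to 1485 and 1484, so these rises were not particular to the adhesion genes. Per-embryo medians over the 8 cadherin genes, as deviations from each gene's mean, ran from -0.10 to 0.38 in Nkx2-5+GFP embryos and from -0.38 to 0.07 in GFP embryos. Embryo 5 was the lowest of the Nkx2-5+GFP group and embryo 5 the highest of the GFP group. The 8 include the called cdh3.L and cdh11.S. Nkx2-5+GFP embryo 5 was also lowest for kindlins and epcam, at -0.19. Over all members it was lowest at -0.012, beside -0.0019 in the next embryo. It was not the lowest for any other family, with 0.13 for catenins and plaque proteins and 0.058 for integrin beta subunits. GFP embryo 5 was highest over all members, at 0.038, but lowest for claudins, at -0.24. Whether embryo 5 of either group differed from the others in stage or in mRNA received was not tested.

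Xenopus laevis has an L and an S copy of many genes, and for 14 of the adhesion genes both were measured. The L minus S value within each embryo was compared between groups over 1017 such pairs of the array. It asks whether the probe sets that stand for the L and the S copy of a gene differ in their response. How far a probe set also detects the other copy was not tested. limma called 11 of the 1017 pairs, or 1.08%, and 1 of the 14 adhesion pairs, fermt1. The copies had differences of the same sign in 11 of the 14 adhesion pairs, and in 662 of the 1017 pairs overall.

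For fermt1 the L minus S value averaged -0.46 in Nkx2-5+GFP embryos and 1.12 in GFP embryos, so that the difference was -1.58 in log2 terms with an SE of 0.29 (limma's p adjusted over the pairs was 0.0208, and the exact permutation p was 0.00216). The call was lost without GFP embryo 6 (limma adjusted p = 0.0527), without Nkx2-5+GFP embryo 1 (limma adjusted p = 0.0515), with the replicate block (limma adjusted p = 0.0964) and with the beta-actin ratio in the fit (limma adjusted p = 0.0746), while the difference stayed between -1.81 and -1.16. By p, pkp3 came next, at -0.34 (SE 0.11, limma adjusted p = 0.134), while itga5 and cldn5 had larger L minus S differences, -0.47 (SE 0.36) and -0.43 (SE 0.34), and none of the 3 passed. For itgb1 the copies differed in sign, with a difference between them of -0.21 and a 95% interval from -0.46 to 0.045. The L minus S intervals of cldn6.1 and cdh3 ran from -0.21 to 0.24 and from -0.12 to 0.36, while that of cdh2 was wider, from -0.92 to 0.94.

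**Figure D5:**
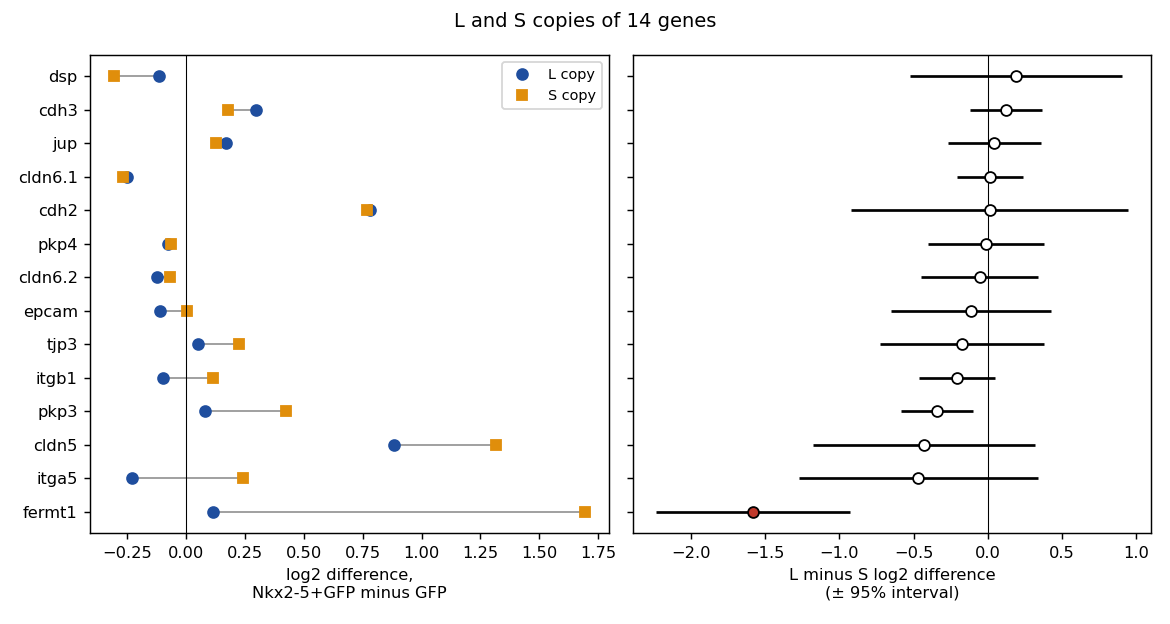
Left, the log2 difference, Nkx2-5+GFP minus GFP, of the L copy (circles) and S copy (squares) of 14 genes. Right, the L minus S difference with its 95% interval (n = 6 embryos in each group), where the filled point marks the called pair, fermt1, at -1.58.

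Other genes of junctions and adhesion were read from 7 lists, described by counts, where 6.97% of all named genes were called. Keratins and other filament proteins that desmosomes hold had 7 of 16 called higher and 0 lower and a median difference of 0.37, against -0.018 over all named genes. Among them krt7.L averaged 11205 ± 1183 in Nkx2-5+GFP embryos and 7112 ± 664 in GFP embryos (SD, n = 6 each), and krt12.4.L averaged 3392 ± 691 in Nkx2-5+GFP embryos and 1528 ± 354 in GFP embryos (SD, n = 6 each). ppl.L, which encodes the plaque protein periplakin, averaged 224 in Nkx2-5+GFP embryos and 94.8 in GFP embryos (n = 6 each), without overlap, and rose by 1.07 on the log2 scale (limma adjusted p = 0.0107). Repressors of cadherin genes and factors of epithelial state had 2 of 12 called and a median of 0.31, namely grhl1.L and grhl3.L, epidermal factors that rose by 0.52 and 0.53.

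Tight junction and polarity proteins had 1 of 18 called, lower, and a median of -0.13. That is 5.56% of the list, near the 6.97% of all named genes called. pard6b.S, a polarity adaptor, fell by 0.67 on the log2 scale (limma adjusted p = 0.0129), with 498 ± 45.1 in Nkx2-5+GFP embryos and 817 ± 184 in GFP embryos (SD, n = 6 each). Integrin adaptors and tetraspanins had 1 of 22 called higher, the tetraspanin gene cd81.L, and 1 called lower, tspan1.S, or 9.09% in all, with a median of -0.044. The cd81.L signal rose by 1.68 on the log2 scale, averaging 390 in Nkx2-5+GFP embryos and 112 in GFP embryos. Its S copy was not called, with averages of 6152 and 6547 and a difference of -0.09 (limma adjusted p = 0.644). tspan1.S fell by 0.29, and tspan1.L differed by -0.21 without passing (limma adjusted p = 0.293). Genes for cadherin processing, turnover and axial movement had 2 of 28 called higher and 2 lower, or 14.3% in all, with a median of -0.052. The membrane protease gene mmp14.L and the Wnt receptor gene ror2.L rose by 0.97 and 0.76 (limma adjusted p = 0.0367 and 0.0377). Both copies of cbll1, which encodes Hakai, known in mammals as an E-cadherin ubiquitin ligase, fell. The falls were 0.53 for cbll1.L and 0.47 for cbll1.S (limma adjusted p = 0.0459 and 0.023). Beta-catenin and other adherens junction partners had 0 of 17 called and integrin ligands of the matrix 0 of 17. Their medians were -0.016 and 0.017, with 4 and 2 at an unadjusted p under 0.05 by limma. Of these lists 12 and 2 genes lay at or above the median probe set, and below it 3.29% of probe sets were called. The beta-catenin gene ctnnb1.S differed by 0.24 (SE 0.07, limma adjusted p = 0.0696) and ctnnb1.L by -0.005 (SE 0.18), and neither passed.

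Of 22 epidermal markers, 11 were called higher and 0 lower, and krt12.4.L, krt12.4.S, krt12.5.S, krt70.L, krt70.S, grhl1.L, grhl3.L and tp63.L stand both here and in the lists above. The 22 markers had a median difference of 0.53, and their summed signals in Nkx2-5+GFP embryos did not overlap those in GFP embryos. The brightest marker, krt70.S, weighs most in these sums. Its median was 25893 in Nkx2-5+GFP embryos and 21618 in GFP embryos, where the sums had medians of 54763 and 36967. Of 16 mesodermal markers 3 were called higher and 10 had an unadjusted p under 0.05 by limma, with a median difference of 0.69. At the same unadjusted p, limma passed 15 of the 22 epidermal markers, 12 of 26 endodermal and 12 of 17 neural plate markers, and 24.3% of all probe sets. Of 26 endodermal markers 1 was called higher and 6 lower, with a median difference of -0.14. Neural plate markers had 2 of 17 called higher and 1 lower, with 10 positive and 7 negative differences and a median of 0.18. Their sums were 36078 to 49153 in Nkx2-5+GFP embryos and 41523 to 45059 in GFP embryos. Beside 6.97% of all named genes called, organizer and axial markers had 1 of 19 called higher and 1 lower, multiciliated cell markers 1 of 7 higher, and maternal markers 2 of 11 lower. At an unadjusted p under 0.05, limma passed 6, 2 and 5 of these in turn. Blood markers had 0 of 13 called and 2 at an unadjusted p under 0.05 by limma, with sums of 1773 to 2114 in Nkx2-5+GFP embryos and 1911 to 2573 in GFP embryos. Only 1 of the 13 lay at or above the median probe set. The lowest mean signals were 32.3 for tp63.L among epidermal, 15.9 for fgf4.S among mesodermal and 26.0 for hhex.L among endodermal markers. The part of these markers in the differences of fermt1.S, itga3.L, cldn5.L and the cadherins was not tested.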

How the data were processed

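Each deposited value is the intensity of a probe set, named signal in the text. The authors made it with MAS5, per the submitters' processing notes. The program's version, its scaling target and its detection rule were not given in the sources used here. Labelling started from 100 ng of total RNA per embryo and ran for 2 cycles with biotin, per the labels' protocols. Of 15611 probe sets, 120 manufacturer's controls were left out. Gene names came from the array's annotation, updated by gene number with RefSeq's table of Xenopus_laevis_v10.1. It named 1 gene for 9304 probe sets, several for 195, from which none was named, and none for 5992.

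Signals were taken as log2(signal + 16), with no further scaling or filter, and fitted with limma 3.58.1 in R 4.3.3 (lmFit, eBayes with trend, 2-sided, 10 residual degrees of freedom). Benjamini-Hochberg adjustment ran over all 15491 probe sets, with calls at an adjusted p under 0.05, and over all 1017 pairs for the L minus S test, with intervals on 10 degrees of freedom. The fitting step was also run on simulated data in which each probe set varied independently. That run cannot speak for effects shared by the probe sets of an embryo. Permutation tests were exact and 2-sided over 924 splits. The number of arrays limits the precision, and the labels do not say whether embryos shared parents, and the p-values cover only the spread among the arrays. Members and lists were chosen with earlier results of these data known. Genes were named by a written rule: each called member, each family's members of highest mean, smallest p and largest differences, their homeologs, and up to 4 called genes of each list by smallest p. In the keratin list ppl.L was given outside that order. Others are given by range or named for completeness.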

Additional observations from a re-analysis of the deposited data

Results flagged for a closer look

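Among 33 named genes in each group, 66 sets of 6 embryos, 4 held an embryo far from the others, where chance flags about 1 in 20. dsp.S in Nkx2-5+GFP embryos had embryo 4 at 4.01 with the next at 25.7, a gap of 0.716 of the group's range on the log2 scale. dsp.L in Nkx2-5+GFP embryos had embryo 5 at 20.7 with the next at 44.3, a gap of 0.68 of the range. cdh2.L in GFP embryos had embryo 2 at 7.57 with the next at 42.8, a gap of 0.672 of the range, and cldn6.2.L in GFP embryos had embryo 5 at 13664 with the next at 16078, a gap of 0.666 of the range. The cdh2.L difference lay between 0.50 and 0.90 when embryos were left out in turn.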

How the results depend on the processing

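The median difference over the 61 genes lay between 0.026 and 0.11 over all alternatives. Over all probe sets limma called 988, and 160 with the beta-actin ratio in the fit, 437 without the intensity trend, and 285 to 1485 when embryos were left out in turn: 558, 330, 463, 1484 and 402 without GFP embryos 2 to 6 and 285, 502, 519, 1485 and 510 without Nkx2-5+GFP embryos 1, 2, 4, 5 and 6. Of the 61 members, 1 was called with the beta-actin ratio, 2 without the intensity trend and 1 to 7 when embryos were left out. Without the dimmer probe sets only 25 members were tested and 3 were called, where the main fit called 1 of these 25. Without the dimmer probe sets the 3 were 2 higher and 1 lower, and up to 1 was lower when embryos were left out. The cadherin median was 0.38 with the beta-actin ratio, 0.81 and 0.37 with pseudocounts of 1 and 64 and 0.42 with all probe sets of a gene averaged. Without the dimmer probe sets it was 0.24, from cdh3.L and cdh3.S alone. The integrin beta median was 0.24 with the beta-actin ratio and 0.10 to 0.19 when embryos were left out. Unequal homeolog pairs numbered 5 with the beta-actin ratio, 19 with a pseudocount of 64, 7 with the replicate block and 4 to 16 when embryos were left out. The cause of these shifts was not tested.

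None of the 5 called members changed sign in any alternative. Of 28 named genes that were not called, 5 passed in some alternative (cldn5.S, cldn6.1.S, fermt2.L, itgb1bp2.L and pkp3.S) and 7 changed sign, all from differences near 0. ctnnd1.L was -0.0077 with quantile normalization. epcam.S was -0.0066 with the beta-actin ratio, -0.026 with array weights and -0.065 with quantile normalization. itgbl1.L was 0.0060 with median scaling, and pcdh1.L was 0.021 with median scaling and 0.0073 with quantile normalization. When embryos were left out, dsp.L ranged from -0.32 to 0.030, epcam.L from -0.26 to 0.045, epcam.S from -0.054 to 0.043, itgbl1.L from -0.19 to 0.10, pcdh1.L from -0.075 to 0.026 and pcdhga3.L from -0.022 to 0.20.

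The labels do not say whether the replicate numbers pair the embryos. Same-numbered embryos' deviations correlated between -0.147 and 0.131. Nkx2-5+GFP embryos 2, 3 and 6 correlated best with the GFP embryo of their own number, and embryos 1, 4 and 5 with another. Correlations this weak cannot decide whether the numbers are pairs. With the replicate block 779 probe sets and 5 members were called, which were not the same 5 as in the main fit. The calls of cdh3.L and cdh11.S were lost (limma adjusted p = 0.06 and 0.073). cldn5.S and itgb1bp2.L passed instead (limma adjusted p = 0.0402 and 0.0432). Dim signals limit what can be seen, since 36 of the 61 genes lie below the median probe set.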
